A study of Homo sapiens with 12 samples.

Results

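The genes described here belong to the unfolded protein response and to ER-associated degradation. They are 38 genes named by symbol, of which 33 were measured, among 17369 features tested in the whole table. A gene counted as measured when a probe annotated to its symbol had a detection p-value under 0.05 on at least 3 of the 12 arrays, and its level was read from the detected probe with the highest mean. The list was drawn up by function, not from the measured changes, but EDEM1 was singled out with earlier results of these data known.

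PANC-1 is an established cell line from a human pancreatic ductal carcinoma. It was transfected with 1 of 4 oligos and total RNA taken after 20 h was hybridised to Illumina BeadChip arrays, with 3 biological replicates a group. The groups were premir miR-10b, premir control, antimir-10b and antimir control. A premir oligo supplies a microRNA and an antimir oligo blocks one, so the premir miR-10b cells were set against premir control, and the antimir-10b cells against antimir control. All groups are the same line, grown in DMEM with serum and transfected, and the level of miR-10b itself was not analysed here. Untransfected cells were not analysed here.

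The endoplasmic reticulum (ER) folds secreted and membrane proteins with the help of chaperones and disulfide isomerases. When unfolded protein accumulates, the sensors ERN1 (IRE1), EIF2AK3 (PERK) and ATF6 turn on the unfolded protein response: IRE1 splices the XBP1 transcript, PERK phosphorylates eIF2alpha and so favours ATF4 translation, and ATF6 is cut to release a transcription factor. The response raises transcripts of chaperones and of the machinery that draws misfolded protein back to the cytosol for destruction, which is ER-associated degradation. Secretory pancreas is known for a high demand on this system.

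On 11 of the arrays 39.2 to 41.3% of probes were detected, and the correlation between any pair of these arrays over the features was 0.981 to 0.996. The exception was premir miR-10b replicate 2, where 29.5% of probes were detected and the correlations with the others had a median of 0.817. Premir changes are therefore given with the 11 arrays that leave this one out, a choice made after seeing the data, and with all 12 arrays where a gene was called or the fits differ most. With 11 arrays the premir miR-10b group has 2 arrays. All 8 ductal epithelial markers looked for (KRT7, KRT8, KRT18, KRT19, EPCAM, CDH1, MUC1 and SOX9) were measured. Of the markers of other cells, COL1A1 and DCN were measured among 7 of fibroblasts, CD14 and CD68 among 6 of leukocytes, 0 of 5 of endothelium and 0 of 7 of acinar and islet cells, and COL3A1, PTPRC, PECAM1 and PRSS1 were detected on 0 arrays.

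Of the 38 genes, 5 gave no level. ERN1, PDIA3 (a disulfide isomerase that works with calnexin and calreticulin) and SEL1L (the partner of the ligase SYVN1) have a probe that was detected on 0 arrays. DERL3 has 2 probes, each detected on 1 array, and no probe is annotated to HERPUD1. The 33 measured genes comprise 6 of 7 stress sensors and transcription factors, 11 of 11 chaperones and co-chaperones, 3 of 4 disulfide isomerases, 8 of 11 degradation genes, and all 5 of the group of eIF2alpha phosphatase subunits and ATF4 targets. Their probes were detected on all 12 arrays for 25 genes, on 11 for 7 genes and on 9 for CHAC1.

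In the premir comparison with 11 arrays, EDEM1 and P4HB fell. The other 31 measured genes, each read from its brightest detected probe, did not pass the test. EDEM1 is a lectin-like ER protein that helps hand misfolded glycoproteins to degradation, and P4HB is protein disulfide isomerase, which forms and rearranges disulfide bonds. A call means an adjusted p under 0.05 in limma's moderated test, with Benjamini-Hochberg adjustment over all 17369 features, and 0.714% of all features were called in this comparison. With 12 arrays 0.127% of all features were called and 0 of the 33 genes were. Both genes had an unadjusted p under 0.05 in that fit, as did 1471 of 17369 features, and no other measured gene did.

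EDEM1 had normalized log2 signals of 7.77, 4.90 and 7.86 on the premir miR-10b arrays (replicates 1, 2 and 3), against 8.97, 9.14 and 8.91 on the premir control arrays. It had 9.16, 9.11 and 9.25 on the antimir-10b arrays, against 9.38, 9.07 and 9.26 on the antimir control arrays. All 3 premir miR-10b arrays lay below every other array, and the lowest value is that of replicate 2, where the probe was not detected (detection p 0.766). Before normalization the bead signal was 353, 49.4 and 261 on the premir miR-10b arrays, against 678, 586 and 559 on the premir control arrays.

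With 11 arrays EDEM1 averaged 7.81 ± 0.0666 (SD, n = 2) after premir miR-10b and 9.01 ± 0.117 (SD, n = 3) after premir control. The log2 change was -1.20 ± 0.131 (SE; 95% interval -1.48 to -0.914), or 2.29-fold lower, with a limma adjusted p of 4.59e-04. With 12 arrays the log2 change was -2.17 ± 0.610 (SE) with a limma adjusted p of 0.448. EDEM1 ranked 25 from the bottom of all features by log2 change with 11 arrays.

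P4HB had log2 signals of 11.06, 11.84 and 11.12 on the premir miR-10b arrays, against 12.21, 12.44 and 12.24 on the premir control arrays. The antimir-10b arrays gave 12.47, 12.31 and 12.41 and the antimir control arrays 12.58, 12.29 and 12.23. Again all 3 premir miR-10b arrays lay below every other array, but here replicate 2 was the highest of the 3. Raw bead signals were 2869, 2191 and 2128 on the premir miR-10b arrays, against 5749, 5035 and 5104 on the premir control arrays.

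With 11 arrays P4HB averaged 11.09 ± 0.0398 (SD, n = 2) after premir miR-10b and 12.30 ± 0.129 (SD, n = 3) after premir control. The log2 change was -1.21 ± 0.137 (SE), or 2.31-fold lower, with a limma adjusted p of 5.16e-04. With 12 arrays it was -0.96 ± 0.206 (SE) with a limma adjusted p of 0.215. The gene ranked 24 from the bottom of all features with 11 arrays, next to EDEM1.

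**Figure D1:**
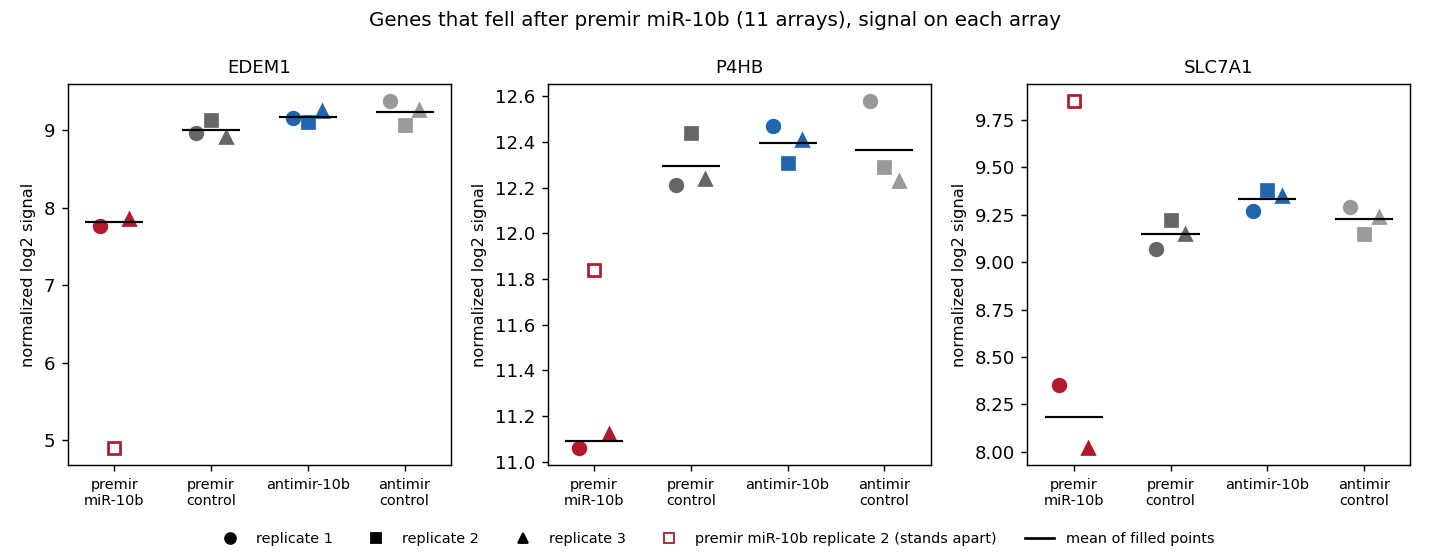
Normalized log2 signal of EDEM1, P4HB and SLC7A1 on each of the 12 arrays, by group (x axis). Marker shape gives the replicate number, the open square is premir miR-10b replicate 2, and lines are means of the filled points. EDEM1 and P4HB were lowest on all 3 premir miR-10b arrays, and SLC7A1 was lower on replicates 1 and 3 (8.35 and 8.02) but high on replicate 2 (9.85).

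With 11 arrays the other 31 measured genes, each read from its brightest detected probe, had smaller changes than EDEM1 and P4HB. Their log2 changes lay between -0.30 and 0.26, with a median of -0.05, and 18 were negative and 13 positive. The median over all 33 genes was -0.06 and that over all features was 0.00. The range of these 31 genes with 12 arrays was from -1.56 for PDIA6 to 0.79 for DNAJC3, so that PDIA6 and DDIT3 (-1.51) had larger changes than P4HB (-0.96). Of the 31 genes 11 were beyond 0.5 in size, against 0 of 31 with 11 arrays. Over all features 5203 of 17369 were beyond 0.5 with 12 arrays, and 533 with 11 arrays.

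EDEM2 and EDEM3, paralogs of EDEM1, did not pass the test, and with 11 arrays their intervals exclude a fall of the size seen for EDEM1. EDEM2 had 8.75, 8.57 and 9.03 on the premir miR-10b arrays, against 8.83, 9.07 and 9.17 on the premir control arrays, a log2 change of -0.13 with 11 arrays (95% interval -0.425 to 0.161). EDEM3 had 6.70, 7.80 and 6.53, against 6.77, 6.48 and 6.66, a change of -0.02 (95% interval -0.386 to 0.338). Over all 12 arrays the changes were -0.24 and 0.37. The other disulfide isomerases that were measured, PDIA4 and PDIA6, had log2 changes of 0.18 and -0.11 with 11 arrays. Neither passed the test, and with 11 arrays both intervals exclude a fall of the size seen for P4HB. On 12 arrays the changes were -0.65 for PDIA4 (95% interval -1.83 to 0.520) and -1.56 for PDIA6 (95% interval -3.56 to 0.445), which do not exclude it; both probes were not detected on premir miR-10b replicate 2.

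Among the sensors and transcription factors 0 of 6 were called. DDIT3 (CHOP, a transcription factor linked to death under prolonged stress) had the largest change in this group, -0.30 with 11 arrays (limma unadjusted p 0.0478, adjusted p 0.618). Its signals were 8.92, 5.17 and 8.71 on the premir miR-10b arrays, against 8.93, 9.26 and 9.14 on the premir control arrays, so that replicate 1 lies just below the lowest control. The DDIT3 change with 12 arrays was -1.51 (limma adjusted p 0.448), and the 6 genes ranged from there to 0.48. With 11 arrays ATF6 had a log2 change of 0.16, ATF3 (a stress-induced transcription factor) -0.13, XBP1 -0.09, ATF4 0.03 and EIF2AK3 0.00. Whether the XBP1 probes tell spliced from unspliced forms was not tested.

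Among the chaperones 0 of 11 were called with 11 arrays. HSPA5 (BiP), the main Hsp70 chaperone of the ER, had 8.41, 9.96 and 8.37 on the premir miR-10b arrays, against 8.72, 8.60 and 8.47 on the premir control arrays, a log2 change of -0.21 (95% interval -0.574 to 0.148). The BiP co-chaperones DNAJB9, DNAJB11 and DNAJC3 had changes of -0.25, -0.22 and 0.24, the largest of this group. HSP90B1 (GRP94), HYOU1 (an Hsp70-like exchange factor), CALR and CANX (the lectin chaperones calreticulin and calnexin), SDF2L1, MANF and CRELD2 lay between -0.15 and 0.07. The 11 chaperones ranged with 12 arrays from -0.79 (HYOU1) to 0.79 (DNAJC3), with HSPA5 at 0.31 and DNAJB9 at 0.13, each of the opposite sign, and 0 were called.

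Among the 8 degradation genes EDEM1 was the only call with 11 arrays. SYVN1 (HRD1, a ubiquitin ligase of the ER membrane) had a log2 change of 0.00, OS9 (a lectin that recognises trimmed glycans) -0.01, DERL1 (a membrane protein of the export channel) 0.07, VCP (p97, the ATPase that pulls substrates out) 0.05 and DERL2 -0.19. These values are from the brightest detected probe of each gene. The other detected DERL2 probe changed by -1.21 and is described below. With 12 arrays OS9 was at -0.83, DERL2 at -0.55 and DERL1 at -0.42, and 0 genes were called. With 11 arrays, of the eIF2alpha phosphatase subunits, PPP1R15A (GADD34) had 0.06 and PPP1R15B -0.09. The ATF4 targets ASNS (asparagine synthetase), TRIB3 (a pseudokinase) and CHAC1 (a glutathione-degrading enzyme) had -0.16, 0.14 and 0.26, and 0 of the 5 genes in this group were called. With 12 arrays these 5 ranged from 0.00 to 0.59, and 0 were called.

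**Figure D2:**
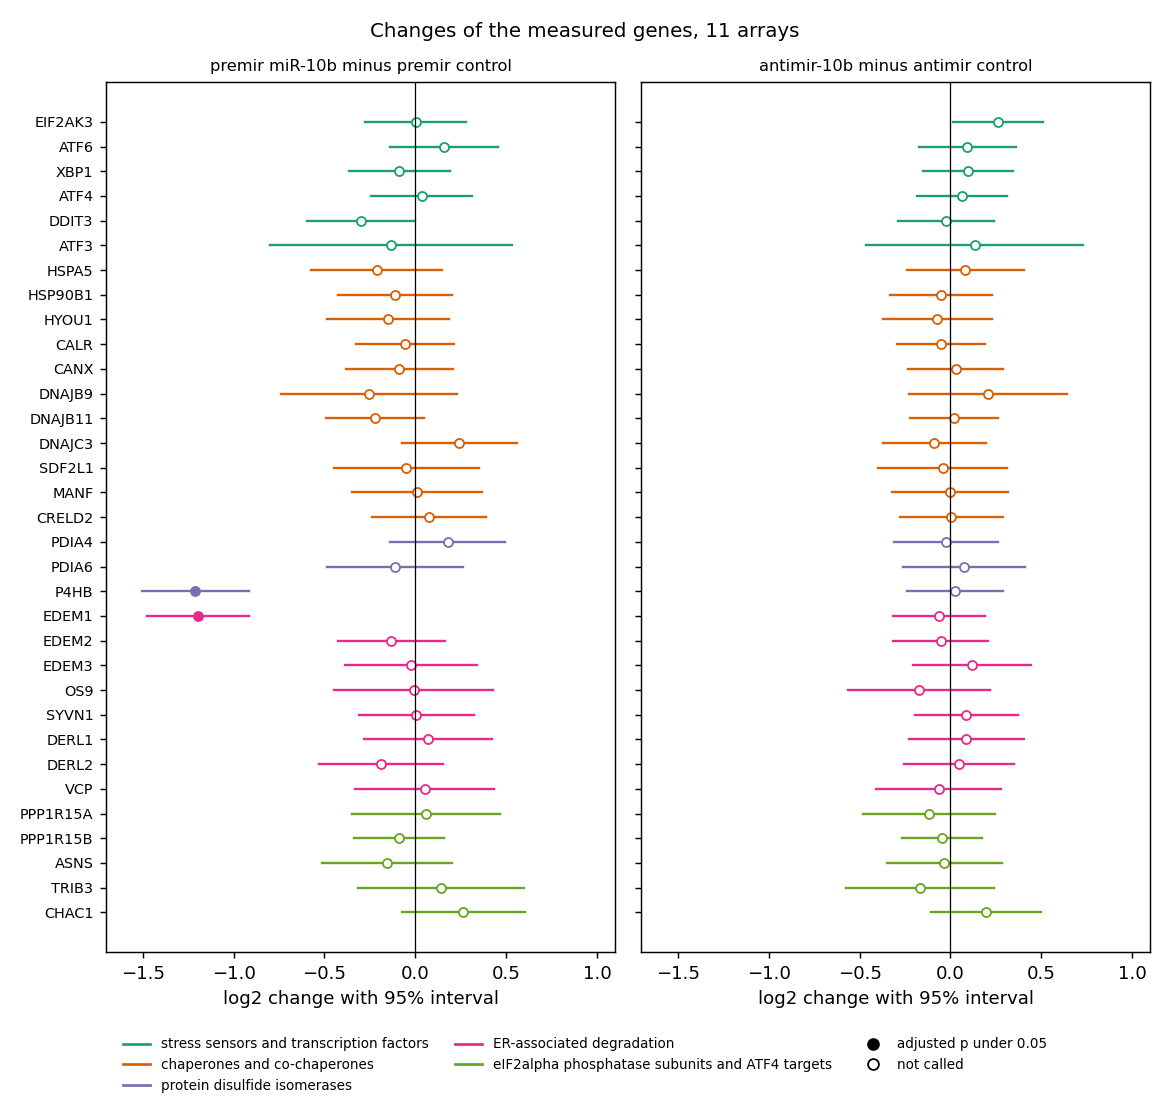
Log2 change with its 95% interval for each of the 33 measured genes (rows, coloured by role), for premir miR-10b minus premir control (left) and antimir-10b minus antimir control (right), 11 arrays. Filled points have an adjusted p under 0.05: EDEM1 at -1.20 and P4HB at -1.21 on the left, and no gene on the right.

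The arrays of the premir pair were also compared one by one, without a test. With 11 arrays the premir miR-10b arrays lay wholly below the premir control arrays for 7 of 33 genes (DDIT3, HSPA5, HYOU1, DNAJB11, P4HB, EDEM1 and PPP1R15B), where 9.98% of all features did. They lay wholly above for 3 genes (ATF6, DNAJC3 and CHAC1), where 9.81% of all features did. With 12 arrays it was 4 genes below (DDIT3, HYOU1, P4HB and EDEM1), where 5.54% of all features did, and 2 above (ATF6 and DNAJC3), where 6.16% did. Apart from EDEM1 and P4HB, the genes in these counts had log2 changes within 0.30 of zero with 11 arrays. CHAC1 and PPP1R15B lay near background, with means of 5.76 and 5.35 after premir miR-10b (11 arrays).

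DERL2, another membrane protein of the degradation machinery, has 2 detected probes that differ. Its main probe had 8.47, 7.65 and 9.03 on the premir miR-10b arrays, against 8.82, 9.05 and 8.94 on the premir control arrays. The other probe, designed on the transcript AK092218, had 6.57, 5.23 and 5.81, against 7.45, 7.51 and 7.25. With every kept probe tested alone and 11 arrays, where 0.637% of probes were called, the main probe changed by -0.19 ± 0.159 (SE; limma adjusted p 0.890) and the other by -1.21 ± 0.206 (SE; limma adjusted p 0.0127). The other probe was chosen for mention after its values were seen. With 12 arrays it changed by -1.53 with a limma adjusted p of 0.121, and it was not detected on premir miR-10b replicate 2. Its difference from the antimir effect was not called with 11 arrays (-1.17, limma adjusted p 0.151), and antimir control minus premir control was -0.56 (limma adjusted p 0.380). Which DERL2 transcripts the other probe reads was not tested.

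With 12 arrays the probes of ATF4 and of CANX also differed in sign, each by more than 0.3 on the log2 scale. The main ATF4 probe changed by 0.41 and its other 2 probes by -0.44 and -0.92, and these other 2 were not detected on premir miR-10b replicate 2. The CANX probes, both detected on every array, changed by 0.32 and -0.33. With 11 arrays all of these lay between -0.17 and 0.14. The other probes of ASNS, HYOU1, SYVN1 and XBP1 changed by 0.21, -0.05, 0.05 and -0.08 with 11 arrays.

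**Figure D3:**
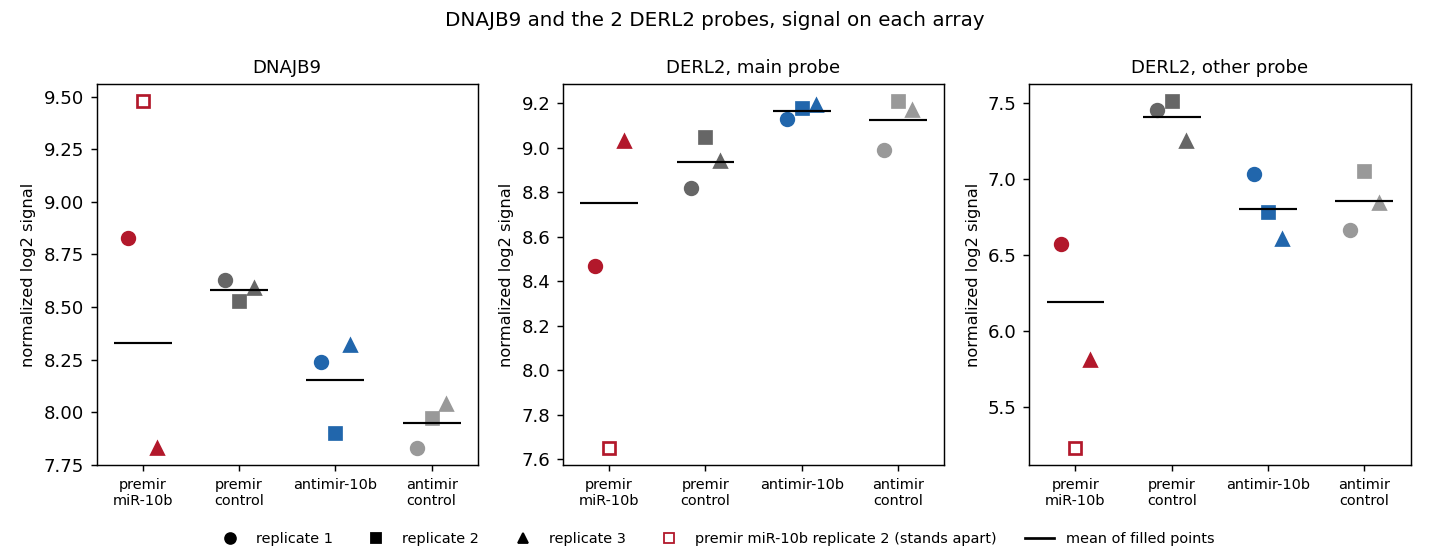
Normalized log2 signal of DNAJB9 and of the 2 DERL2 probes on each array, by group (x axis), with markers and lines as in the plot of EDEM1, P4HB and SLC7A1. The premir miR-10b arrays of DNAJB9 spread from 7.83 to 9.48, and those of the other DERL2 probe (5.23 to 6.57) all lie below its premir control arrays (7.25 to 7.51).

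After antimir-10b none of the 33 genes passed limma's test with 11 or with 12 arrays, and 0% of all features were called in either fit. With 11 arrays 1 gene, EIF2AK3, had an unadjusted p under 0.05, where 365 of 17369 features did. With 12 arrays 0 genes did, where 46 features did. EIF2AK3 had 6.31, 6.35 and 6.28 on the antimir-10b arrays, against 5.92, 6.05 and 6.19 on the antimir control arrays, a log2 change of 0.26 (limma unadjusted p 0.0414, adjusted p 0.999). It was also the only gene whose antimir-10b arrays lay wholly above the antimir control arrays, where 4.46% of all features did, and for 0 genes did they lie wholly below, where 4.17% did.

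The changes after antimir-10b were small in every role group. EDEM1 changed by -0.06 (95% interval -0.314 to 0.191) and P4HB by 0.03 (95% interval -0.236 to 0.290). The largest others were 0.26 for EIF2AK3, 0.21 for DNAJB9, 0.20 for CHAC1, and -0.17 for OS9 and TRIB3. ATF3 had 0.13, EDEM3 0.12 and PPP1R15A -0.12. The median over the 33 genes was 0.01, beside 0.00 over all features.

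The difference between the premir and the antimir effects was tested in the same model, with the antimir pair subtracted from the premir pair. EDEM1 differed by -1.13 ± 0.176 (SE; limma adjusted p 0.0139) and P4HB by -1.24 ± 0.183 (SE; limma adjusted p 0.0117) with 11 arrays, where 0.363% of all features were called, and 0 of the other 31 genes did. The next in size was DNAJB9 at -0.46 (limma adjusted p 0.879). With 12 arrays 0% of all features and 0 of the 33 genes were called. EDEM1 and P4HB had an unadjusted p under 0.05 there, as did 569 of 17369 features. Neither difference was called without antimir control replicate 2, where they were -1.05 and -1.20 (limma adjusted p 0.0574 and 0.0518).

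Antimir control was also set against premir control, to see how far the 2 control oligos differ on these genes. Limma called 0 of the 33 genes with 11 arrays, where 0.207% of all features were called, and 0 with 12 arrays, where 0.023% were. At an unadjusted p under 0.05 there were 5 genes with 11 arrays, where 1765 of 17369 features were, and 0 with 12, where 352 were. These 5 were DNAJB9 at -0.64, EIF2AK3 at -0.33, DNAJB11 at -0.29, VCP at 0.35 and TRIB3 at 0.53 on the log2 scale. The antimir control arrays lay wholly below the premir control arrays for 4 genes (EIF2AK3, CANX, DNAJB9 and DNAJB11), where 9.3% of all features did, and wholly above for 2 (VCP and TRIB3), where 10.5% did. EDEM1 and P4HB differed by 0.23 and 0.07 between the controls (limma adjusted p 0.525 and 0.868).

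DNAJB9 (ERdj4), a BiP co-chaperone and textbook XBP1 target, had the largest difference between the controls in size. It had 7.83, 7.97 and 8.04 on the antimir control arrays, against 8.63, 8.53 and 8.59 on the premir control arrays, with no overlap. The premir miR-10b arrays had 8.83, 9.48 and 7.83 and the antimir-10b arrays 8.24, 7.90 and 8.32. Premir miR-10b replicate 1 thus lay above every control array, and replicate 3 was level with the lowest of them. The control difference of -0.64 ± 0.201 (SE) had a limma adjusted p of 0.347 with all groups in the fit, and of 0.0308 with the 6 control arrays alone. The fit of the 6 control arrays is an alternative, and how many of all features it called was not counted.

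Over the 11 arrays the median residual SD of the 33 genes was 0.152 on the log2 scale, beside 0.171 over all features. The widest were ATF3 with a residual SD of 0.441 and DNAJB9 with 0.30, followed by OS9, SDF2L1 and TRIB3 by range. Measured from the mean of the array's own group, premir miR-10b replicates 1 and 3 had the largest deviations in 4 of these: ATF3 had 8.07 and 6.96 there and DNAJB9 had 8.83 and 7.83, while SDF2L1 had 10.72 and 11.42 and TRIB3 had 9.34 and 9.98. OS9 was widest within antimir-10b, at 7.97, 7.84 and 7.20.

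On premir miR-10b replicate 2, 21 of the 33 genes (63.6%) were more than 1 log2 unit from their median on the other 11 arrays, where 43.7% of all features were. Of these 10 were lower and 11 higher, and 31 of the 33 lay outside the range of the other arrays, as did 13695 of 17369 features. The difference was -4.29 for PDIA6, -4.21 for EDEM1 and -3.97 for DDIT3, all not detected there, and 1.80 for SDF2L1, 1.70 for DNAJC3 and 1.49 for HSPA5. In all, 7 of the 33 genes (21.2%) were not detected on this array, beside 33.1% of all features.

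**Figure D4:**
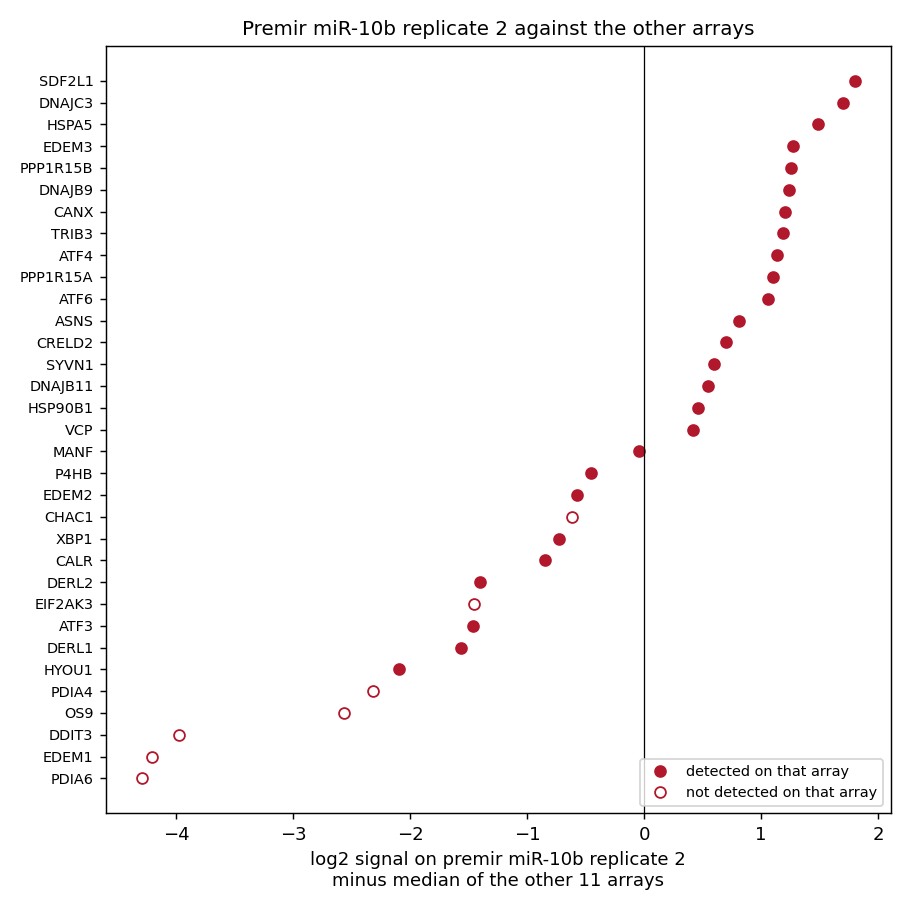
Log2 signal of each measured gene (rows) on premir miR-10b replicate 2 minus its median over the other 11 arrays (x axis). Open points were not detected on that array, and the values run from -4.29 for PDIA6 to 1.80 for SDF2L1, with MANF near 0 at -0.04.

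Further genes of the pathway were read from lists of other degradation genes (33 of 37 measured), ER folding and glycosylation genes (53 of 58), stress sensors and regulators (26 of 30) and ATF4 targets (38 of 42). With 12 arrays limma called 0 of them in each comparison, and 4, 2, 2 and 5 had an unadjusted p under 0.05 in the premir comparison, where 1471 of 17369 features did. With array weights that fit called 5, 2, 1 and 4 of them in the premir comparison. The weights were 0.360, 0.0269 and 2.53 for premir miR-10b replicates 1, 2 and 3. How many of all features the weighted fit called was not counted, so these numbers cannot be set against the whole table. With 11 arrays 1 gene of these lists was called in that comparison, where 0.714% of all features were called. This gene, named here because it was called, is SLC7A1, a cationic amino acid transporter from the ATF4 list. It had 8.35, 9.85 and 8.02 on the premir miR-10b arrays, against 9.07, 9.22 and 9.15 on the premir control arrays, so replicate 2 lies above the controls and the other replicates below them.

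SLC7A1 changed by -0.96 ± 0.130 (SE; limma adjusted p 0.00183) with 11 arrays, and the difference from the antimir effect was -1.07 (limma adjusted p 0.0176). That difference lost its call under 8 of 23 alternatives, among them scaled values (limma adjusted p 0.206), median centring (0.268) and leaving out premir miR-10b replicate 3, premir control replicate 2 or 3, or antimir control replicate 2 or 3 (0.0513 to 0.0892). With the values as scaled by the authors the premir call was lost (-0.84, limma adjusted p 0.0897), and so it was with median centring (-0.84, limma adjusted p 0.0861). With 12 arrays the log2 change was -0.41. The antimir-10b arrays had 9.27, 9.38 and 9.35, against 9.29, 9.15 and 9.24 on the antimir control arrays.

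The rest of these lists stayed below the threshold with 11 arrays in the premir comparison. Their median log2 changes were -0.01 for degradation, -0.04 for folding, 0.00 for sensors and 0.01 for ATF4 targets. The gene with the smallest p among the degradation genes was UFD1, a VCP cofactor, at -0.49 (limma adjusted p 0.377), followed by YOD1, a deubiquitinase that works with VCP, at -0.52 (0.417) and HERPUD2, a homolog of HERPUD1, at 0.38 (0.443). It was TMX1, a membrane-bound disulfide isomerase, at -0.65 (0.445) among the folding genes, and MAP3K5 (ASK1), a stress kinase, at 0.41 (0.510) among the sensors. In antimir control against premir control YOD1 had a log2 change of -0.68 (limma adjusted p 0.185). After antimir-10b 0 genes of the 4 lists were called.

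The promoters were searched for the DNA elements through which this response is known to act, to show which genes carry them. Of the 38 genes 35 have a promoter in the RefSeq table (GRCh38.p14, from 250 bases before to 50 after the transcript start). PDIA3, DERL1 and DERL3 do not. The ER stress element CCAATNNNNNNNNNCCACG, on either strand, lies in the windows of 0.0916% of 27305 genes and of 7 of the 35: CALR, CANX, CRELD2, HSP90B1, HSPA5, PDIA6 and XBP1. The ER stress element II, which is ATTGG, any base and CCACG, lies in 0.0696% of genes and in 3 of the 35: HERPUD1, HYOU1 and SDF2L1. Capitals in these examples mark the letters of the element, written 5′ to 3′ on the strand that holds it.
HSPA5, chr9:125241391-125241409, minus strand: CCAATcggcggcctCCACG
HSP90B1, chr12:103930216-103930234, plus strand: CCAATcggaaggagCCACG
CANX, chr5:179698778-179698796, plus strand: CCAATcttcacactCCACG
XBP1, chr22:28800603-28800621, minus strand: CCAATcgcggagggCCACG
PDIA6, chr2:10812853-10812871, minus strand: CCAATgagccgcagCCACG
SDF2L1, chr22:21642114-21642124, minus strand: ATTGGtCCACG
HYOU1, chr11:119057380-119057390, plus strand: ATTGGaCCACG

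The 2 genes that fell hold neither element in their windows, and none of the other 2 motifs searched. Their bases before the start are shown with CCAAT and CCACG, the parts of the ER stress element, in capitals on either strand. EDEM1 has 1 CCAAT and 2 CCACG there, read as CGTGG on the strand shown, but not at the spacing of 9 bases, and P4HB has 3 CCAAT and 0 CCACG. In the whole window of 300 bases 39.7% of all genes hold CCAAT and 42.1% hold CCACG, as do 28 and 25 of the 35 genes. No match says only that these letters are not in the window.
EDEM1, chr3:5187457-5187706, plus strand: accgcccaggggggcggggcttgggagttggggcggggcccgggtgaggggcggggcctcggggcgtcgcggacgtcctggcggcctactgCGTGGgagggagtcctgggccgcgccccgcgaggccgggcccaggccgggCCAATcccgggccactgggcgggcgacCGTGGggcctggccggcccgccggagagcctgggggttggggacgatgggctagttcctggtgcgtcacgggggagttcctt
P4HB, chr17:81860536-81860785, minus strand: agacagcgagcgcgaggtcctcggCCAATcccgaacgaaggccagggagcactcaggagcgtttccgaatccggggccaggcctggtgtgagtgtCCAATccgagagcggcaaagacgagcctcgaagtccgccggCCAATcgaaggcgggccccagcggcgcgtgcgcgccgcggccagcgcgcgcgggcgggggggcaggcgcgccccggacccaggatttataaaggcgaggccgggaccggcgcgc

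The XBP1-type element TGACGTGG lies in 0.927% of genes and in 2 of the 35, HYOU1 and VCP, and in HYOU1 it overlaps an ER stress element II. The element of C/EBP and ATF factors, TGATGNAA, lies in 4.46% of genes and in 5 of the 35: ASNS, ATF3, CHAC1, HERPUD1 and PPP1R15B. The 9 measured genes with an ER stress element of either kind had log2 changes between -0.21 and 0.07 in the premir comparison with 11 arrays. Of them 0 were called, where 0.714% of all features were. With 12 arrays they ranged from -1.56 (PDIA6) to 0.59 (SDF2L1), and 0 were called, where 0.127% of all features were. At such shares 0 calls among 9 genes says little about these genes.

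**Figure D5:**
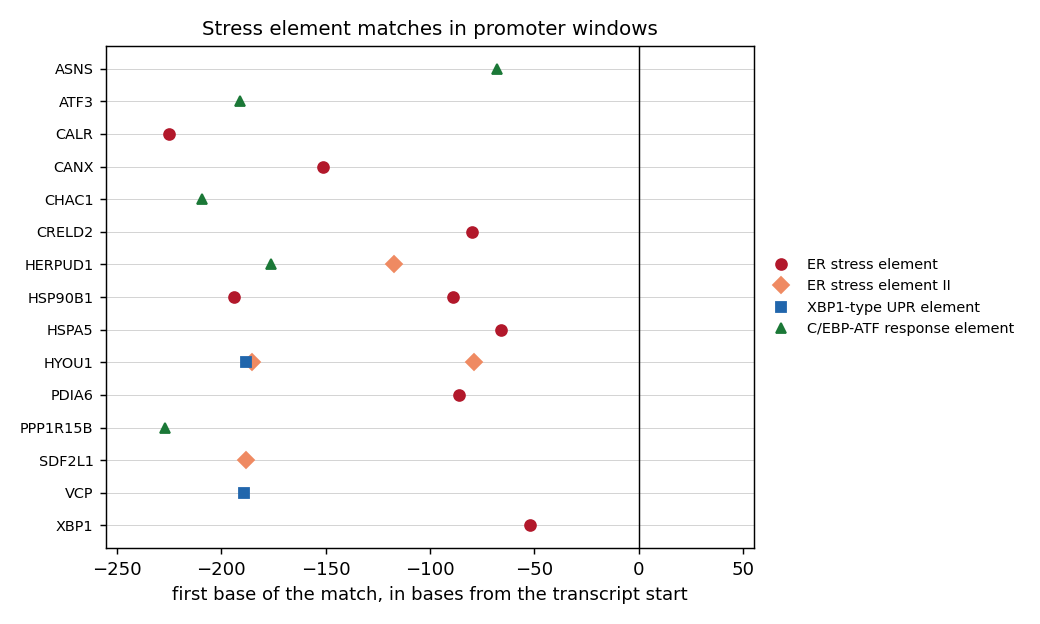
Position of each motif match in the promoter windows of the 15 genes that hold one (rows), as the first base of the match counted from the transcript start (x axis). Matches lie before the start in all 15 genes, and HSP90B1 and HYOU1 hold 2 matches of the same kind.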

How the data were processed

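Total RNA was extracted with Trizol and labelled with biotin by the Illumina TotalPrep kit, per the labels. The deposited table gives the bead intensity (linear scale, no normalization between arrays) of 47231 probes on 12 arrays. It also holds a detection p-value for each probe and array, as deposited. A further deposited table holds the intensity as scaled by the authors, each array being its signal times 1 constant of 0.927 to 1.12. For the scanning software, slides and scan dates: not given in the sources used here.

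In R 4.3.3, limma 3.58.1 corrected background from the detection p-values and normalized to common quantiles (neqc, offset 16), then took log2. Probes with detection p under 0.05 on at least 3 arrays were kept (21195). Symbols came from the platform annotation: 30113 probes had 1, 8 several and 17110 none. The brightest kept probe stood for a symbol and probes without 1 symbol stayed alone, giving 17369 features. Group means were fitted with lmFit and eBayes, two-sided, over 12 arrays and over 11, which kept the normalization of the 12. Genes were named by role group (EDEM1, calls, the largest changes). The members, gene lists and alternatives were chosen with earlier results of these data known. The fit was tested on simulated data. Alternatives were other background, scaling, filter, probe, block, variance and array-weight settings, only the compared arrays, and leaving out each array. The number of arrays limits the precision. Levels of different probes were not compared, and no transcript sequences were searched for seed matches.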

Additional observations from a re-analysis of the deposited data

Results flagged for a closer look

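The log2 change after premir miR-10b and that after antimir-10b differed, by the test of the difference with 11 arrays, for P4HB (-1.24, limma adjusted p 0.0117) and for EDEM1 (-1.13, limma adjusted p 0.0139). P4HB changed by -1.21 in the premir pair and by 0.03 in the antimir pair, and EDEM1 by -1.20 and -0.06. Neither difference passed with 12 arrays (limma adjusted p 0.734 for both).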

How the results depend on the processing

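The premir calls of EDEM1 and P4HB with 11 arrays held under every alternative that kept their probe, with log2 changes of -1.24 to -1.03 and -1.26 to -1.05. Leaving out premir miR-10b replicate 1 or 3 leaves that group 1 array there, which is assumed to vary like the other groups. Detection at p under 0.01 in all 12 arrays removes the EDEM1 probe and left 1 call, and leaving out 1 array gave 2 to 3. For the difference between effects the count was 1 with the authors' scaled values, with median centring and with that detection filter, and 0 to 3 leaving out 1 array. EDEM1 there was -1.11 (limma adjusted p 0.0683) with scaled values, -1.14 (0.0855) with median centring and -1.21 to -1.05 leaving out 1 array. With 12 arrays the premir count was 1 with scaled values, 3 with array weights and 0 to 2 leaving out 1 array, and that of the difference was 3 with array weights and 0 to 2. EDEM1 was then -1.18 and -1.16 with array weights, and -2.67 to -1.20 and -2.61 to -1.13 leaving out 1 array. How many of all features these alternatives called was not counted. Antimir control against premir control gave 1 call, DNAJB9, with the 6 control arrays alone in both fits, and 0 to 1 leaving out 1 array with 11 arrays (called without premir miR-10b replicate 1 or 3). DNAJB9 in the premir comparison with 12 arrays turned from 0.13 to -0.62 (limma adjusted p 0.0450) with array weights. There premir miR-10b replicates 1, 2 and 3 had weights of 0.360, 0.0269 and 2.53, so that replicate 3 weighed most. With 11 arrays the DNAJB9 change was -0.25, and it was -0.76 without premir miR-10b replicate 1, where replicate 3 stands alone. Of 5694 settings of the other members, pooled over genes, comparisons and both sets of arrays, 7 gained a call in the same direction. In 1 setting a call was gained with the sign turned (DNAJB9 with array weights). These genes had no call in the main fits, so no call could be lost. YOD1 was called between the controls with array weights and with the 6 control arrays alone in both fits, and with 11 arrays without premir miR-10b replicate 1 or 3. The cause of these changes was not tested, apart from those that remove a probe or an array. With 12 arrays the authors' scaled values moved the median of all features to -0.10 in the premir comparison and -0.14 in the difference. Probes near background limit what can be read of ERN1, PDIA3, SEL1L and DERL3, and of the measured genes CHAC1 and PPP1R15B.

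The replicate numbers were not taken to pair the samples, since the labels state no block. Correlations of same-numbered deviations in the premir pair with 11 arrays were 0.419 (replicate 1) and 0.190 (replicate 3). With 12 arrays they were 0.208, 0.0286 and 0.0596 for replicates 1, 2 and 3. In the antimir pair they were 0.160, -0.102 and 0.364. These values do not decide whether same-numbered samples belong together. With the replicate block the counts stayed at 0 with 12 arrays and at 2 in the premir comparison and the difference with 11 (EDEM1 -1.21 and -1.15), and the SLC7A1 difference was no longer called (-1.06, limma adjusted p 0.0511).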
